A study of Mus musculus with 12 samples.

Results

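Oligodendrocyte and myelin genes were followed in bulk RNA from the lateral septum, a nucleus of the mouse forebrain that lies close to white matter. The members are the 30 rows of the deposited expression table whose gene symbols are on a list of genes of mature oligodendrocytes and their myelin, out of 54532 genes in that table. All 30 reached an FPKM (read fragments counted on a gene, scaled to its length in kilobases and to library depth) of at least 1 in at least 6 libraries, as did 13345 genes in all. The study has 12 libraries of wild-type (WT) mice, labelled day 3: 6 after injection of saline and 6 after injection of CFA, which in studies of pain stands for complete Freund's adjuvant, an agent that causes lasting local inflammation. The labels give no sex, age or strain, and whether each library is a separate animal is not stated in them. P-values here therefore measure only the spread between samples, part of which may be technical.

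Oligodendrocytes are the glial cells of the brain and spinal cord that wrap axons in myelin, a stack of compacted membrane rich in cholesterol and galactolipids. The wrapping insulates the axon between the nodes of Ranvier and lets impulses travel fast. As oligodendrocyte precursors mature, the transcription factors SOX10 and MYRF switch on the genes for myelin proteins and lipid enzymes as a group. In bulk tissue, fewer oligodendrocytes and less RNA per oligodendrocyte cannot be told apart.

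Promoter stretches are printed for 3 members to show the short sequences that were searched for. Whether these sequences go with the way members vary between libraries was not tested. RefSeq windows of build GRCm38.p6 were matched by symbol for 20 of the 30 members. Each window runs from 250 bases before a transcription start to 50 after it. The 250 bases before the start are given for Mag (chr7:30914923-30915172), Mog (chr17:37023399-37023648) and Opalin (chr19:41077114-41077363), all on the minus strand and read 5′ to 3′ towards the gene. Capitals mark ACAAAG, a hexamer of the kind SOX proteins bind, and the heptamer CTGGCAC with its close variant CTGGTAC, of the kind MYRF binds, on either strand.
Mag: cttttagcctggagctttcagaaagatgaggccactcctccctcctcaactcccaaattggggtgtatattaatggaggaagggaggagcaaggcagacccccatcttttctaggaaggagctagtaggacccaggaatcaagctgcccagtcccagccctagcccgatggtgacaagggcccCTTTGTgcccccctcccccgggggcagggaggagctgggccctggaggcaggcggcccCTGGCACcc
Mog: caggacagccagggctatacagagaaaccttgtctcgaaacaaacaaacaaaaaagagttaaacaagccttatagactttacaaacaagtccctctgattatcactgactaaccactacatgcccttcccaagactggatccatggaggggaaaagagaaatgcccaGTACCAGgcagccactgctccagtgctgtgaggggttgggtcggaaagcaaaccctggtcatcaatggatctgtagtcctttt
Opalin: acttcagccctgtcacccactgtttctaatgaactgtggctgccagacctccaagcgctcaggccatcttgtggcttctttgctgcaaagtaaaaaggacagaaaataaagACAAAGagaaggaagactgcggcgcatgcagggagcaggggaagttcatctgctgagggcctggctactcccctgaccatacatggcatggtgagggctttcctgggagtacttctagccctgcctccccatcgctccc
In this stretch of Mag, the hexamer ACAAAG on the other strand, printed CTTTGT, begins 67 bases and CTGGCAC 9 bases before the start. In Mog, CTGGTAC on the other strand, printed GTACCAG, begins 83 bases before the start, and in Opalin ACAAAG begins 139 bases before it. ACAAAG was present in the windows of 6 of 20 members (30%) and of 5680 of all 27025 genes in the table, and ACAATG, also searched, in 4 (20%) and 14.3%. CTGGCAC was present in 4 members (20%) and 5.73% of genes, and CTGGTAC in 1 member (5%) and 2.60%. A match describes the letters of the window and is not a measured binding site.

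The question of the design was which genes differ between CFA and saline. For the myelin membrane genes no difference was found beyond the spread between libraries. Mbp, which encodes myelin basic protein, the protein that holds the cytoplasmic faces of the myelin membrane together, is an example (ENSMUSG00000041607, chromosome 18, 82475146 to 82585637, mm10). Its 6 saline libraries had a lowest value of 247, a median of 521 and a highest of 671 FPKM, and its 6 CFA libraries had 314, 527 and 721 FPKM. The groups overlapped over nearly their whole ranges. The means were 486 ± 145 and 535 ± 167 FPKM (SD, n = 6 each), a log2 fold change of CFA over saline of 0.14 with a standard error of 0.25 and a 95% interval of -0.39 to 0.67 (limma, adjusted p = 0.938).

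Mog encodes myelin oligodendrocyte glycoprotein, which sits on the outermost layer of the sheath (ENSMUSG00000076439, chromosome 17, 37010743 to 37023398). Its lowest, median and highest values were 32.3, 72.5 and 79.4 FPKM in saline and 44.7, 70.5 and 94.5 FPKM in CFA. The lowest library of all was saline 1 and the highest CFA 5, so each group reached far into the range of the other. The means were 63.6 ± 18.7 and 70.4 ± 18.5 FPKM (SD, n = 6 each; log2 fold change 0.17, 95% interval -0.32 to 0.65, limma adjusted p = 0.911).

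Mag encodes myelin-associated glycoprotein, an adhesion molecule on the innermost layer, facing the axon. Its values ran from 37.7 to 87.0 FPKM in saline (median 81.2) and from 45.5 to 112 FPKM in CFA (median 73.2), so the CFA median lay below the saline one although the highest library was CFA 4. The log2 fold change was 0.10 (95% interval -0.43 to 0.64, limma adjusted p = 0.956). Mobp, a small basic protein of compact myelin, ran from 91.9 to 256 FPKM in saline and from 125 to 328 FPKM in CFA (log2 fold change 0.23, adjusted p = 0.882). Again the groups overlapped.

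Opalin, an oligodendrocyte membrane glycoprotein, ranged from 5.72 to 15.7 FPKM in saline (median 13.1) and from 10.7 to 22.2 FPKM in CFA (median 14.2). Its log2 fold change was 0.28 (95% interval -0.18 to 0.75, limma adjusted p = 0.802). Hapln2, a link protein that binds hyaluronan in the matrix at the nodes of Ranvier, ranged from 6.19 to 11.8 FPKM in saline (median 8.40) and from 7.12 to 14.4 FPKM in CFA (median 10.0). It had the smallest p of the 30 members, 0.0901 before adjustment and 0.719 after it (limma), with a log2 fold change of 0.30 and a 95% interval of -0.05 to 0.66. By an exact permutation test over the 924 assignments of 6 of 12 libraries, its two-sided p was 0.147 (n = 6 each).

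For 2 enzymes of myelin lipids, too, no difference was found beyond the spread between libraries. Ugt8a makes galactosylceramide, the main galactolipid of myelin, and had nearly equal means, 31.0 ± 9.30 FPKM for saline against 30.6 ± 9.51 FPKM for CFA (SD over 6 libraries each, with a log2 fold change of -0.01, limma adjusted p = 0.995). Gal3st1 adds a sulfate to that lipid to give sulfatide. Its lowest, median and highest values were 6.61, 9.93 and 11.9 FPKM in saline and 5.07, 7.49 and 12.0 FPKM in CFA. It had the lowest fold change of the members, -0.26 (95% interval -0.66 to 0.14, limma adjusted p = 0.780), and its 2 groups covered much the same range.

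Of the transcription factors, Sox10, which stays on in mature cells, ranged from 15.4 to 27.8 FPKM in saline (median 19.9) and from 13.8 to 26.2 FPKM in CFA (median 16.0). Its log2 fold change was -0.19 (95% interval -0.57 to 0.18, limma adjusted p = 0.844). Myrf, the membrane-bound factor that drives myelin genes in maturing cells, had 10.8 ± 2.99 and 11.6 ± 3.86 FPKM (SD, n = 6 each; log2 fold change 0.07, limma adjusted p = 0.964). The 2 factors thus had fold changes of opposite sign, and both intervals included 0. Among the other members, Bcas1, a marker of oligodendrocytes that are forming myelin, had a log2 fold change of 0.12 (limma adjusted p = 0.943). Gsn, the actin-severing protein gelsolin, had means of 46.4 FPKM in both groups.

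**Figure D1:**
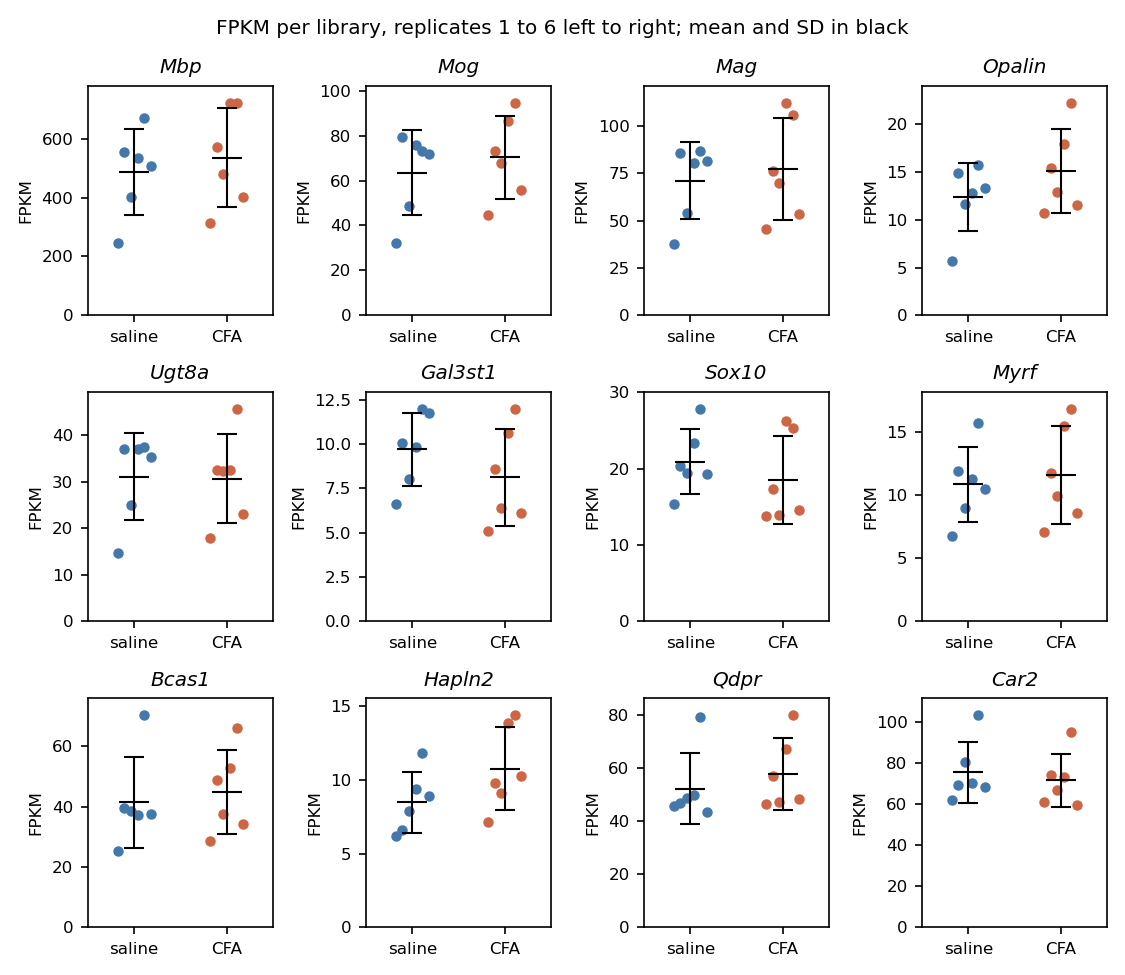
FPKM of 12 members in each saline and each CFA library; points are libraries, the bar is the group mean and the whisker 1 SD (n = 6 each). In every panel the points of the 2 groups overlap.

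Over all 30 members, 0 were called higher and 0 lower in CFA at a limma adjusted p under 0.05, where 0.03% of all tested genes (4 of 13345) were called, 0.015% in each direction. No member had an unadjusted p under 0.05, a level that 7.67% of tested genes reached, and for no member were the groups free of overlap, against 0.495% of genes. The fold change was above 0 for 24 members and below 0 for 6, while 48% of all tested genes were above 0. The median was 0.10 for the members and -0.00427 for all tested genes. By role, 11 of 11 genes in the myelin membrane group had a fold change above 0. That group also takes in Hapln2, of the nodal matrix, and Ermn, a cytoskeletal protein of the sheath. So did 4 of 7 lipid and metabolic enzymes, 1 of 3 transcription factors and 8 of 9 other oligodendrocyte genes have a fold change above 0. Leaving out 1 library turned these signs for many members at once. Without saline 1 the median was -0.03, with 10 members above 0, and without CFA 5 it was -0.00281, with 14 above 0. The half-width of the 95% interval was 0.27 to 0.57 on the log2 scale. That width is for a single gene before adjustment. A call after adjustment over the 13345 genes needed a larger change, so changes above that size could also go uncalled.

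The groups also differed in the sex of the libraries, read from the X-inactivation RNA Xist and the Y-linked Ddx3y, which the labels do not give. Of the saline libraries, 2 had Xist and 4 had Ddx3y at more than 1 FPKM. Of the CFA libraries, 5 had Xist and 1 had Ddx3y at that level. With this as a term in the limma fit, the median fold change of the members was -0.06, with 8 of 30 above 0 and 0 called. Among the 7 libraries with Xist alone it was -0.20, and among the 5 with Ddx3y 0.19. Its part in the result was not tested.

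**Figure D2:**
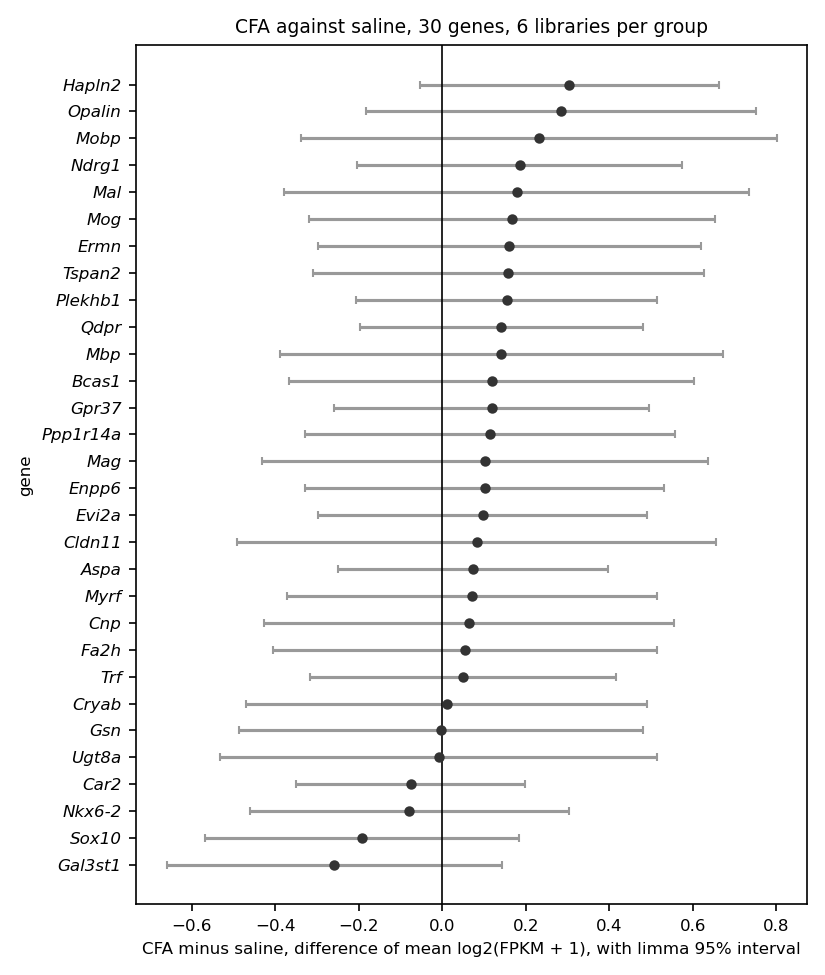
Log2 fold change of CFA over saline for the 30 members on the log2(FPKM + 1) scale, ordered by value; lines are the 95% limma intervals. Values run from -0.26 (Gal3st1) to 0.30 (Hapln2), and every interval includes 0.

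The members had a wide range between libraries. From the lowest to the highest of the 12 libraries, a member changed by a median of 2.68 times, from 1.74 times for Car2, the carbonic anhydrase of oligodendrocytes, to 3.89 times for Opalin. Over the 13277 tested genes with values above 0 in every library the median was 1.40 times. The coefficient of variation over the 12 libraries had a median of 28.0% for the members and 10.0% for all tested genes. Within groups, the SD of log2(FPKM + 1) was 0.42 for the members at the median and 0.12 for all tested genes. Counting error was a small part of it: each member had 235 to 237989 reads in each library, and Poisson error would give at most 3.17% of a member's variance.

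The same libraries were low and high for most members. Saline 1 was the lowest library for 24 members, CFA 1 for 4, CFA 6 for Car2 and saline 6 for Qdpr. Saline 1 and CFA 1 were the 2 lowest for 22 members. CFA 5 was the highest for 20 members, saline 5 for 6 and CFA 4 for 4. Both the low and the high end thus held libraries of both groups. The mean of log2(FPKM + 1) over the members was lowest in saline 1 (4.28) and CFA 1 (4.45) and highest in CFA 5 (5.52), saline 5 (5.36) and CFA 4 (5.33). The groups did not separate on it, with 4.91 ± 0.360 for saline against 5.00 ± 0.395 for CFA (SD, n = 6 each).

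**Figure D3:**
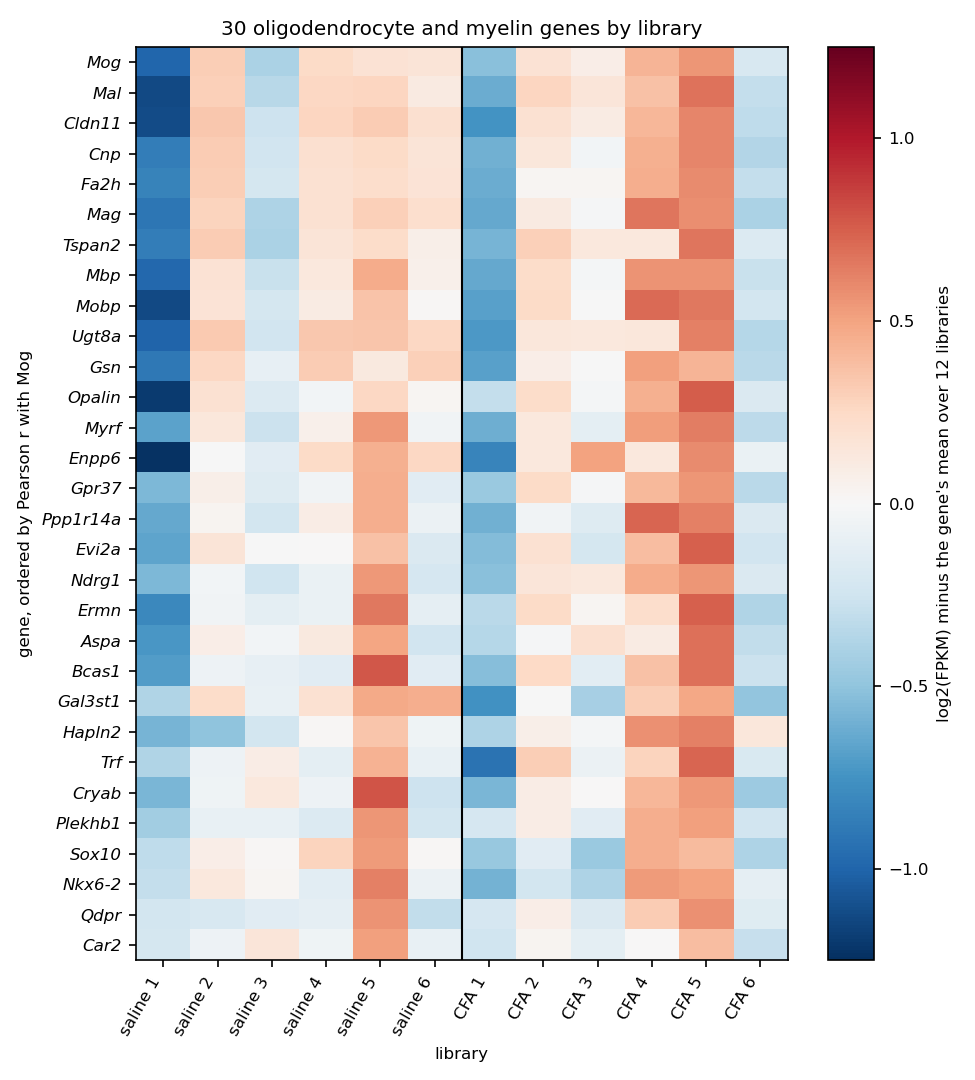
Heat map of log2 FPKM minus the gene's mean over the 12 libraries, for the 30 members in rows, ordered by their correlation with Mog, and the libraries in columns (saline 1 to 6, then CFA 1 to 6). The columns of saline 1 and CFA 1 are low in most rows, those of CFA 4 and CFA 5 high, and saline 5 is high in many of the lower rows.

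How closely members moved together was measured by each gene's correlation with Mog over the 12 libraries, on log2(FPKM + 1), with 100000 permutations and adjustment over the 13344 other tested genes. Of the other 29 members, 14 were called as rising and falling with Mog, where 0.652% of all tested genes were called (87 of 13344) and 0% were called in the opposite direction. Pearson's r over the 29 ran from 0.510 to 0.991 with a median of 0.858, while the median over all tested genes was -0.00963. Spearman's rho ran from 0.580 to 0.965, and by rho 11 members and 0.315% of genes were called. Without saline 1, the lowest library for most members, 8 members and 0.217% of genes were called. After the group means were subtracted, 15 members and 0.585% of genes were called.

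Most myelin membrane genes and some lipid enzymes were among the members that followed Mog most closely. The myelin membrane group had a median r of 0.964, from 0.706 (Hapln2, of the nodal matrix) to 0.991 (Mal). The 7 lipid and metabolic enzymes had a median of 0.804, from 0.510 to 0.974, and 3 of them were called. Mal, a proteolipid that carries cargo to the myelin membrane, had r = 0.991 and rho = 0.965 over the 12 libraries (permutation adjusted p = 0.0111). Its ratio to Mog stayed between 2.51 and 3.01 over all libraries, a factor of 1.20, although Mal itself varied by 3.50 times. Claudin-11 (Cldn11), which forms the tight junctions between the layers of myelin, had r = 0.985. Cnp, the nucleotide phosphodiesterase that keeps cytoplasmic channels open in myelin, had r = 0.978, and Fa2h, which hydroxylates the fatty acids of myelin galactolipids, had r = 0.974. Mag (0.972), Tspan2, a tetraspanin of the sheath (0.965), Mbp (0.963), Mobp (0.960), Ugt8a (0.956), Gsn (0.950) and Opalin (0.935) came next. In all, 11 members had an r above 0.9, as had 0.367% of tested genes.

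The 3 transcription factors differed in how closely they followed Mog. Myrf had r = 0.895 and rho = 0.916 (permutation adjusted p = 0.0142), Sox10 had r = 0.664 and rho = 0.727 (adjusted p = 0.424), and Nkx6-2, a homeodomain factor of the lineage, had r = 0.613 and rho = 0.629 (adjusted p = 0.566). The ratio of Sox10 to Mog ranged from 0.205 to 0.475 between libraries, a factor of 2.32. Over the 3 pairs of factors the median r was 0.863, which is above the r of Sox10 and of Nkx6-2 with Mog and below that of Myrf. Gpr37, a receptor-like membrane protein (0.860), and Enpp6, a choline phosphodiesterase of new oligodendrocytes (0.884), were also called with Mog, but Enpp6 had a rho of 0.629 and an r of 0.609 without the 2 libraries farthest from the median of Mog.

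The other members were not called, which does not show that they vary independently of Mog. Bcas1 had r = 0.777 (permutation adjusted p = 0.183), Ndrg1, a cytoplasmic protein of myelinating cells, 0.823, and Ppp1r14a, an inhibitor of myosin phosphatase, 0.858. Ermn, a cytoskeletal protein of the sheath, had 0.812, Evi2a, a membrane protein whose gene lies within Nf1, 0.842, and Aspa, which splits N-acetylaspartate to feed lipid synthesis, 0.804. Lower values were found for Gal3st1 (0.742), Hapln2 (0.706), the iron carrier transferrin (Trf, 0.701), the small heat shock protein Cryab (0.695) and Plekhb1, a pleckstrin-homology protein of membranes (0.685). The lowest were Qdpr, which regenerates the cofactor tetrahydrobiopterin (r = 0.554, adjusted p = 0.645), and Car2 (r = 0.510, adjusted p = 0.726).

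**Figure D4:**
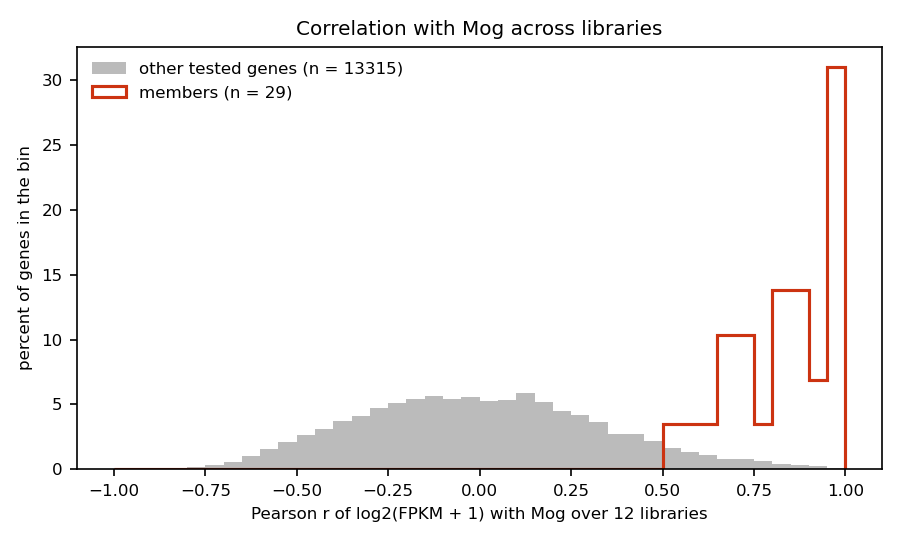
Histogram of Pearson's r with Mog over the 12 libraries, for the other 29 members and the other 13315 tested genes, each as the percentage of its genes per bin. The members lie between 0.510 and 0.991, and the other genes centre on 0.

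Saline 5 and saline 2 show where members part from Mog. Mog was 0.920 times as high in saline 5 as in saline 2, and Gsn (0.907), Fa2h (0.941) and Mal (0.979) were similar. In the same 2 libraries Hapln2 was 1.80 times as high, Cryab 1.79, Bcas1 1.78 and Qdpr 1.69. In all, 16 members were above 1.3 times and 10 between 0.9 and 1.1 times, against 5.48% of tested genes above 1.3 times and a median of 1.00 for all. This pair of libraries was chosen after the values were seen. Saline 5 was also one of the 2 libraries with high Ttr, a transcript of choroid plexus, at 701 FPKM. Saline 3, the other, had 2259 FPKM, and saline 2 had 4.50 FPKM. Without saline 3 and saline 5, 13 members were called with Mog. Its part in the result was not tested.

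**Figure D5:**
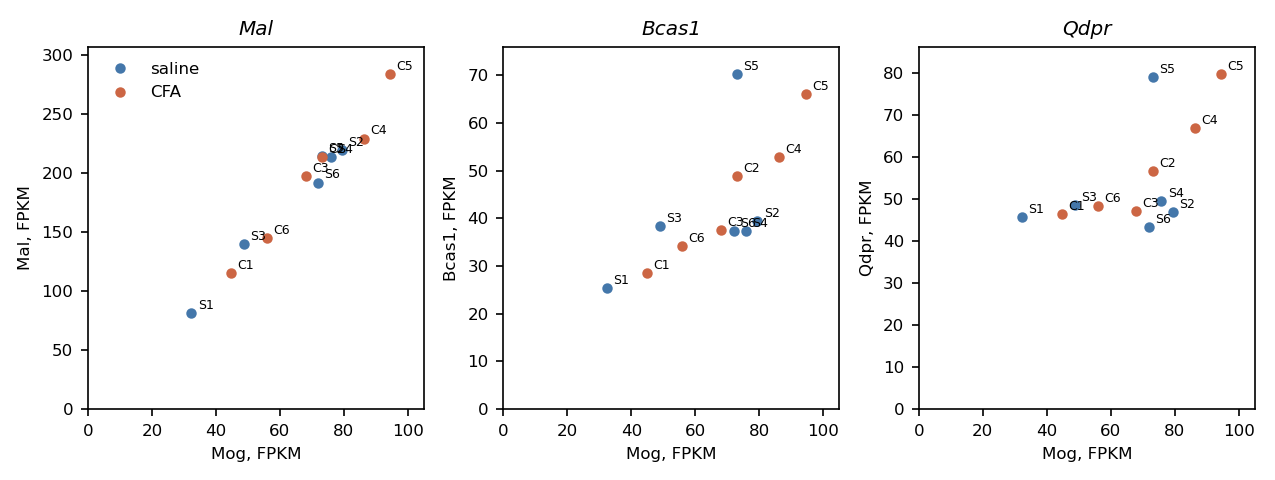
FPKM of Mal, Bcas1 and Qdpr against FPKM of Mog; each point is 1 library, S for saline and C for CFA with the replicate number. Mal lies close to a line through all 12 libraries, while for Bcas1 and Qdpr saline 5 lies well above the other libraries of similar Mog level.

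In subsets of the libraries the correlations with Mog stayed above 0 for every member, with ranges that were wider in some subsets and narrower in others. Without saline 1 and CFA 1, the 2 libraries farthest from the median of Mog, r with Mog ran from 0.310 to 0.973 over the members, with a median of 0.691 (10 libraries). Within saline the median was 0.856, with a range of 0.270 to 0.995, and within CFA 0.959, with a range of 0.843 to 0.997 (6 libraries each). Within the 7 libraries with Xist the median was 0.915, with a range of 0.586 to 0.993. Within the 5 with Ddx3y the median was 0.929, and the range of 0.119 (Qdpr) to 0.995 reached lower than in any other subset here. Over all 435 pairs of members the median r was 0.841, from 0.479 for Gsn and Qdpr to 0.995 for Cnp and Fa2h, and -3.73e-05 over all pairs of tested genes. One principal component held 83.3% of the members' variance over the libraries and the second 7.71%.

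Genes outside the members that were most like Mog were named by the highest r with it over the 12 libraries. Sirt2, a deacetylase abundant in myelin, had r = 0.977 and rho = 0.965, and Cers2, the ceramide synthase for very long acyl chains, 0.964 and 0.958 (permutation adjusted p = 0.0111 for both). Lrrn1 (0.968), Wipf1 (0.955), Efhd1 (0.951), Lpar1, a lysophosphatidic acid receptor (0.949), Map6d1 (0.947), Cmtm5 (0.944) and Serinc5 (0.942) followed. None of these 9 genes was called between CFA and saline (limma adjusted p from 0.826 to 0.978). They varied less than Mog, by 1.64 to 2.62 times between libraries against 2.92 times.

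Further genes of the lineage were read from lists set by cell stage. Of 31 tested genes of mature oligodendrocytes outside the members, 9 were called with Mog (0.652% of all tested genes), among them Adamts4, a matrix protease (r = 0.927), and Pllp, the proteolipid plasmolipin (0.915). Over the 31 genes r ran from -0.0187 to 0.949 with a median of 0.761, so some of them did not follow Mog. Of 14 genes of committed and newly formed oligodendrocytes, 3 were called: Sirt2, Gpr17, a receptor that holds cells in the committed stage (0.844), and the factor Sox8 (0.851). Of 15 genes of precursors and of the lineage as a whole, 2 were called, the factors Olig2 (0.913) and Olig1 (0.891), which are expressed throughout the lineage. Pdgfra, the growth factor receptor of precursors, had r = 0.291 and varied from 7.31 to 9.80 FPKM, and Cspg4, the NG2 proteoglycan of precursors, had 0.774. Of 20 genes of lipid synthesis, 2 were called, Cers2 and Elovl1, which lengthens fatty acids (0.891). Of 12 genes of the junction between axon and myelin 1 was called, Nfasc, an adhesion molecule of the paranode and node (0.925). The median r was 0.591 for the committed list and 0.404 for the precursor and lineage list, with lowest values of 0.0768 and -0.479. For the lipid list the median was 0.491 and for the junction list 0.318, with lowest values of 0.0563 and -0.399.

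Neu4 and Cntn2 are each on 2 of these 5 lists. In them, 0 genes were called between CFA and saline (limma, 0.03% of all tested genes). Fold changes above 0 were found for 18 of 31 mature genes, 8 of 14 committed genes, 6 of 15 precursor and lineage genes, 7 of 20 lipid genes and 3 of 12 junction genes. The smallest unadjusted p among them was that of Serpinb1a, a protease inhibitor, at 0.0121 (log2 fold change 0.44, limma adjusted p = 0.463). Vcan, a matrix proteoglycan of precursors, had 2.64 ± 0.0979 and 3.02 ± 0.247 FPKM (SD, n = 6 each; limma adjusted p = 0.519).

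Depth and other cell types were set beside Mog in the same way, as 18 relations adjusted together. The 18 include the means of the mature, committed, precursor, lipid and junction lists above. Their r with Mog ran from 0.642 (junction) to 0.933 (committed). The microglia, endothelial, ependymal, medial septum, cortical and leptomeningeal lists had r from -0.345 (medial septum) to 0.374 (ependymal). Depth, recovered from the FPKM steps as 33.6 to 39.2 M reads per library, had r = -0.0277 with Mog (rho 0.00699, permutation adjusted p = 0.932 and 1). The mean of 14 genes of striatal projection neurons had r = -0.517 (permutation adjusted p = 0.206) and rho = -0.469 (adjusted p = 0.327). Within saline its r was -0.769 and within CFA -0.707. Values within a group rest on 6 libraries and were not tested, and other lists below had values as large in saline. That mean was highest in CFA 1 (5.11), followed by CFA 6 (4.67), saline 1 (4.31) and CFA 5 (4.25), while the lowest library was CFA 2 (3.40). Of these 4 highest, CFA 1 and saline 1 were the 2 lowest libraries for most members, but CFA 5 was the highest for 20 of them. The opioid peptide gene Penk, a marker of those neurons, was at 180 FPKM in CFA 1 and 37.5 in CFA 2. The mean of 10 astrocyte genes had r = 0.571 (adjusted p = 0.176) and rho = 0.825 (adjusted p = 0.00608), so the 2 measures fell on different sides of the threshold. Within saline its r was 0.935 and within CFA 0.588. The choroid plexus list, with 6 of 11 genes tested, had r = -0.167 and the pan-neuronal list -0.128. The pan-neuronal list had -0.601 within saline and 0.653 within CFA. Of 8 markers of Schwann cells, which make the myelin of peripheral nerves, 2 passed the filter, the transcription factors Pou3f1 at 2.50 to 5.05 FPKM and Egr2 at 0.934 to 1.58 FPKM. The other 6 stayed at or below 0.928 FPKM, the highest value of Ncmap, and Pmp2 was at 0 FPKM in all 12 libraries. The mean of the 2 tested markers had r = 0.0435 with Mog (permutation adjusted p = 0.932) and a rho of 0 (adjusted p = 1). All 10 marker genes of lateral septum neurons were tested, with Trpc4 at 12.6 to 18.4 FPKM and Zic1 at 75.4 to 132 FPKM. Their mean had r = 0.118 with Mog (permutation adjusted p = 0.807), with 0.874 within saline and -0.177 within CFA. The part of dissection or cell makeup in the members' range was not tested.

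Possible sharing of reads with neighbouring genes limits a sizeable part of the members. In GENCODE M21, an exon of 11 of the 30 members overlaps an exon of another gene, such as Cnp with Dnajc7 and Bcas1 with 2 antisense genes, and the strand setting of the counting is not given in the sources used here. Mbp, Mog, Mag, Opalin, Mal and Sox10 have no such overlap.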

How the data were processed

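The authors deposited FPKM values per gene and library, together with gene lengths. Per the labels' protocols, RNA was extracted with Trizol and 0.2 µg per sample gave libraries for paired-end sequencing (Illumina Novaseq). The submitters' processing notes name HISAT2 2.0.5 and the build mm10. The read counter, gene annotation and strand setting were each not given in the sources used here. FPKM multiplied by length fell in whole steps (100% within 0.01 read), which gave the reads per library. Another 6 columns of per-sample values matched no sample and were not used. Groups came from the labels, and the 6 libraries of a group were its replicates. CFA and saline were compared with limma 3.58.1 (R 4.3.3) on log2(FPKM + 1), eBayes with trend, two-sided, Benjamini-Hochberg over the 13345 genes that reached an FPKM of 1 in 6 or more libraries, threshold 0.05. Fold changes on that scale understate the change of low genes. Correlations used two-sided permutation tests (100000 resamples). Both fits were tested on simulated data. Of 50 genes drawn from all tested genes, limma called 34% at a log2 fold change of 0.3 and 74% at 0.6. Members vary more between libraries than most tested genes, so these shares may not hold for them. The correlation test called 20 of 100 genes with a true correlation of 0.7 and 100 of 100 at 0.94. Python 3.11.15, numpy 2.4.6, pandas 2.3.3 and matplotlib 3.10.9 made tables and figures. The members, those named with fold changes, the 10 genes most like Mog and the lists were chosen with earlier results of these data known. Of those 10 genes, 1 is not reported here. Alternatives covered pseudocount, filter, scaling, variance model, replicate block, left-out libraries and sex.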

Additional observations from a re-analysis of the deposited data

Results flagged for a closer look

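In the saline group, 1 library stood far from the other 5 for 3 of the 30 members, saline 5 each time. Bcas1 was at 70.3 FPKM there, and the next library at 39.5 FPKM, a gap of 0.687 of the group's range. Plekhb1 was at 141 FPKM against 90.4 for the next, a gap of 0.724. Qdpr was at 79.0 FPKM against 49.6, a gap of 0.827. Each gap is larger than Dixon's 95% critical value for 6 values. Among 60 groups looked at (30 members in each of 2 groups), chance flags about 1 in 20, and the members vary together, so these 3 are not separate observations. Mog was at 73.0 FPKM in saline 5, within the range of the other saline libraries.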

How the results depend on the processing

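No alternative with 2 or more libraries in each group called a member between CFA and saline. The count was 0 in each direction for every such pseudocount, filter, scaling, variance model, voom, block, left-out library and sex setting. Some fold changes turned sign, and not only those near 0. With sex as a covariate, 16 of 30 members had the other sign and 8 were above 0. Among libraries with Xist, 23 had the other sign and 1 was above 0. Among libraries with Ddx3y, 3 had the other sign and 25 were above 0. The Ddx3y comparison rests on 1 CFA library against 4 saline libraries, and the Xist comparison on 5 CFA against 2 saline libraries. The fold change of Ugt8a was 0.0309 on TPM, 0.0151 after quantile normalization, 0.0138 without saline 3 and saline 5, and 0.28 among libraries with Ddx3y. That of Gsn was 0.0364 on TPM, 0.0174 after quantile normalization, 0.00181 by voom, 0.00101 without saline 3 and saline 5, and 0.0814 among libraries with Ddx3y. With sex as a covariate, Mbp was at -0.0605, Mag -0.0682, Myrf -0.12 and Bcas1 -0.11. Among libraries with Xist, Mbp was at -0.23, Mog -0.15, Mag -0.22, Mobp -0.12, Opalin -0.0259, Myrf -0.25 and Bcas1 -0.25. With 1 library left out at a time, the fold change ranged from -0.0401 to 0.28 for Mbp, -0.0111 to 0.29 for Mog, -0.0655 to 0.24 for Mag, -0.20 to 0.13 for Ugt8a, -0.0414 to 0.19 for Myrf, -0.00506 to 0.28 for Bcas1 and -0.18 to 0.13 for Gsn. The members called with Mog ranged from 8 (without saline 1) to 15, and their median range between libraries from 2.32 (without saline 1) to 2.68 times. With Mbp as the reference 20 members were called and with Mag 16. The causes were not tested.

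With the replicate number as a block, the median fold change of the members was 0.10 and 0 were called, though 6 had an unadjusted p under 0.05 (limma, smallest adjusted p = 0.282). The share of all tested genes under that unadjusted p was not counted for this fit, so the 6 cannot be weighed against it. After adjustment, 1 of all tested genes was called, against 4 without the block. Over all tested genes, the deviations of same-numbered libraries correlated at -0.0118 to 0.159. For 2 of 6 numbers the closest library was the one with the same number, so the numbers were not taken to pair the samples. That check does not cover the members alone. By number 1 to 6, their mean log2(FPKM + 1) was 4.28, 5.06, 4.80, 5.03, 5.36 and 4.96 in saline. In CFA it was 4.45, 5.07, 4.92, 5.33, 5.52 and 4.71. Whether same-numbered libraries share a batch or a pairing was not tested.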
